A study of Homo sapiens with 8 samples.

Results

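Beta-tubulin is the subunit of the alpha/beta-tubulin dimer that exposes its exchangeable GTP at the growing end of a microtubule, and human cells make it from several genes, called isotypes, whose proteins differ mostly in the acidic carboxy-terminal tail. The 6 isotypes described here are TUBB, TUBB2A, TUBB2B, TUBB3, TUBB4B and TUBB6, taken by symbol from the 60664 gene identifiers of the count tables. They are 6 of the 10 protein-coding beta-tubulin genes in those tables. The rule that names them uses no measured value, but they were chosen with earlier results of these data known. TUBB4A, which is not among them, is given further on. TUBB, TUBB4B and TUBB6 are broadly expressed, TUBB2A and TUBB2B are a near-identical pair best known from brain, and TUBB3 is a classical neuronal marker.

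Newly made beta-tubulin cannot fold on its own. Prefoldin (PFD), a jellyfish-shaped complex, binds the unfolded chain and passes it to the double-ring chaperonin TRiC (also called CCT), which encloses it. The product released from TRiC is still not a dimer: TBCA and TBCD hold beta-tubulin, TBCB and TBCE hold alpha-tubulin, and TBCC with the small GTPase ARL2 completes assembly and release. Tubulin synthesis is also self-limiting, because the factor TTC5 recognises the first residues of a nascent tubulin chain and, with SCAPER and the CCR4-NOT deadenylase subunit CNOT11, triggers decay of the message when free dimer is abundant.

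Ribosome-protected fragments, or footprints, were sequenced from U2OS cells, a human osteosarcoma line, of genotype CCT4-Halo (the TRiC libraries) or PFDN4-Halo (the PFD libraries). In each line the HaloTag had been knocked into the endogenous gene of the named subunit with CRISPR, and the cells came from a selected clone, so that line, clone and library batch cannot be told apart. All cells, those of the inputs included, received 100 µg/ml cycloheximide (CHX) for 1 min and then the reversible crosslinker DSP at 2 mM for 30 min. The input holds all ribosomes and the pulldown those recovered through the tagged chaperone, with 2 replicates in each of the 4 groups and no mock pulldown from untagged cells among the samples.

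The 8 libraries held between 9523128 and 32637658 counts. All 4 bone or mesenchymal markers (RUNX2, SPARC, VIM and COL1A1) had at least 100 counts in every library, with a summed level of 6795 to 9679 CPM, that is, counts relative to the scaled library total. The 7 neuron markers summed to 40.5 to 75.7 CPM, of which MAP2 (458 to 1345 counts) and SNAP25 (109 to 410) had at least 100 counts in every library, while INA was at 0 in all 8 libraries and DCX at 0 to 9 counts. The 4 epithelial markers summed to 128 to 413 CPM, and blood markers to at most 0.278 CPM. Replicates of every group differed by more than sampling noise (chi-square per degree of freedom 15.3 to 96.3), so none was a repeat deposit. The study's methods call the replicates biological, and the labels do not say what was repeated, so the p-values measure the spread between these libraries, which may be partly technical. The common dispersion, the variance between replicates beyond counting, was 0.0153 for TRiC libraries and 0.331 for those of PFD, and effects of a given size were therefore less easily called in PFD.

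The opening codons are shown first because they encode the signal that TTC5 reads. Each line gives the first 30 coding bases, 5′ to 3′ on the coding strand, with the 12 bases of the first 4 codons in capitals.
TUBB: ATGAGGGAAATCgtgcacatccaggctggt
TUBB2A: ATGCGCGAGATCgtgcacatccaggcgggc
TUBB2B: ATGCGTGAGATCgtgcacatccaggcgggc
TUBB3: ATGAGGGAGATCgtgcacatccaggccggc
TUBB4B: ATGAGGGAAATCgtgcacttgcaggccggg
TUBB6: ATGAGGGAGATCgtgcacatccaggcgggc
Translation by script gave the same 4 residues for all 6 genes, although up to 3 of the 12 bases differed from TUBB (3 in TUBB2A and TUBB2B, 1 in TUBB3 and TUBB6, 0 in TUBB4B). On hg38 these stretches lie in the first coding exon at chr6:30720507-30720536 (plus strand, TUBB), chr6:3157434-3157463 (minus strand, TUBB2A), chr6:3227514-3227543 (minus strand, TUBB2B), chr16:89923402-89923431 (plus strand, TUBB3), chr9:137241361-137241390 (plus strand, TUBB4B) and chr18:12308293-12308322 (plus strand, TUBB6).

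The other end of the coding sequence is where the isotypes diverge. The lines below give the 30 bases before the stop codon, and capitals mark bases that differ from TUBB at the same distance from the stop codon.
TUBB: gatttcggtgaggaggccgaagaggaggcc
TUBB2A: TTCGAGgAGgaggaggGcgaGgaCgaggcT
TUBB2B: TTCGAGgAGgaggaggGcgaGgaCgaggcG
TUBB3: gaGGAGgAGTCggaggccCaGgGCCCCAAG
TUBB4B: TTCGAGgAGgaggCTgAGgaGgaggTggcc
TUBB6: TTtGAGgAtgaggaAgAGgaGATCgaTgGA
Compared in this way, TUBB3 differed from TUBB at 18 of the 30 bases, TUBB6 at 16, TUBB4B at 14 and both TUBB2A and TUBB2B at 12. No gaps were allowed, although the coding sequences differ in length. They hold 444 codons in TUBB, 445 in TUBB2A, TUBB2B and TUBB4B, 446 in TUBB6 and 450 in TUBB3. A shift by whole codons therefore counts as differing bases, and these numbers do not rank the isotypes by divergence. TUBB2A and TUBB2B ended alike except at the last base. The stretches lie at chr6:30724365-30724394 (TUBB), chr6:3153866-3153895 (TUBB2A), chr6:3224754-3224783 (TUBB2B), chr16:89935772-89935801 (TUBB3), chr9:137243524-137243553 (TUBB4B) and chr18:12326098-12326127 (TUBB6).

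Likeness between the isotypes bears on how many footprints could be counted at all, since only uniquely aligned reads entered the tables. The coding sequences run from 1332 bases in TUBB to 1350 in TUBB3, each over 4 coding exons. TUBB2A and TUBB2B were identical at 98.2% of aligned bases, whereas TUBB matched the other 5 isotypes at 81.4% to 84.9%. Of the 30-base windows of the spliced coding sequence, the share found nowhere else on the primary chromosomes was 88.8% in TUBB6, 74.1% in TUBB4B, 71.9% in TUBB3, 42.4% in TUBB, 17.6% in TUBB2B and 15.6% in TUBB2A. The non-unique windows of TUBB2A lay mostly in TUBB2B (984 windows), and those of TUBB mostly in the processed pseudogene TUBBP1 (628 of 1303 windows). When the alternate contigs of hg38 were searched as well, 2.30% of TUBB windows stayed unique. TUBB nevertheless held the most counts of the 6, and which contigs the alignment index held is not given in the sources used here.

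Overlapping genes touch TUBB3 and TUBB in particular. Exons of ENSG00000198211, a same-strand gene without a symbol in the annotation, cover 95.8% of the TUBB3 coding sequence, and the gene-counting step of STAR assigns a read over 2 genes to neither. ENSG00000198211 had 0 counts in all 8 libraries, and 21 of the 1321 TUBB3 windows (1.59%) were both unique and free of it. For TUBB, 40.4% of the coding sequence lies under exons on the opposite strand (ENSG00000272540 and MDC1). ENSG00000272540 had 0 to 2 counts in each library. Whether counting used the strand is not stated. No coding base of TUBB2A, TUBB2B, TUBB4B or TUBB6 lies under another gene's exon.

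The composition of the beta-tubulin pool was the first question, and it was read from the inputs. TUBB was the leading isotype, TUBB4B came next and TUBB6 was the next after it, in all 4 inputs. Per kilobase of coding sequence, TUBB took 50.4% ± 0.199 of the counts of the 6 isotypes in the TRiC inputs and 54.4% ± 1.24 in those of PFD (mean ± SD, n = 2 each, throughout this paragraph). TUBB4B took 31.0% ± 0.0416 and 27.7% ± 0.252, and TUBB6 16.5% ± 0.0710 and 17.2% ± 1.28. The gaps between these 3 exceeded the spread between replicates in both lines.

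The remaining 3 of the 6 isotypes were minor. TUBB4A, which is outside the 6 and these shares, had 515 and 502 counts in the TRiC inputs. TUBB2A had 376 and 392 counts there and TUBB3 405 and 394. In the PFD inputs TUBB4A had 57 and 35 counts, fewer than TUBB2A or TUBB3. TUBB2B took 1.28% ± 0.130 in the TRiC inputs against 0.199% ± 0.165 in PFD. TUBB2A took 0.403% ± 0.00933 and 0.300% ± 0.0435, and TUBB3 0.415% ± 0.0299 and 0.168% ± 0.0872. In the TRiC inputs TUBB2A and TUBB3 lay within their replicate spread of each other, while in PFD the range of TUBB2B overlapped both that of TUBB2A and that of TUBB3. The 6 isotypes together made up 0.319% and 0.327% of all counts in the TRiC inputs and, for PFD, 0.354% and 0.355%.

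**Figure D1:**
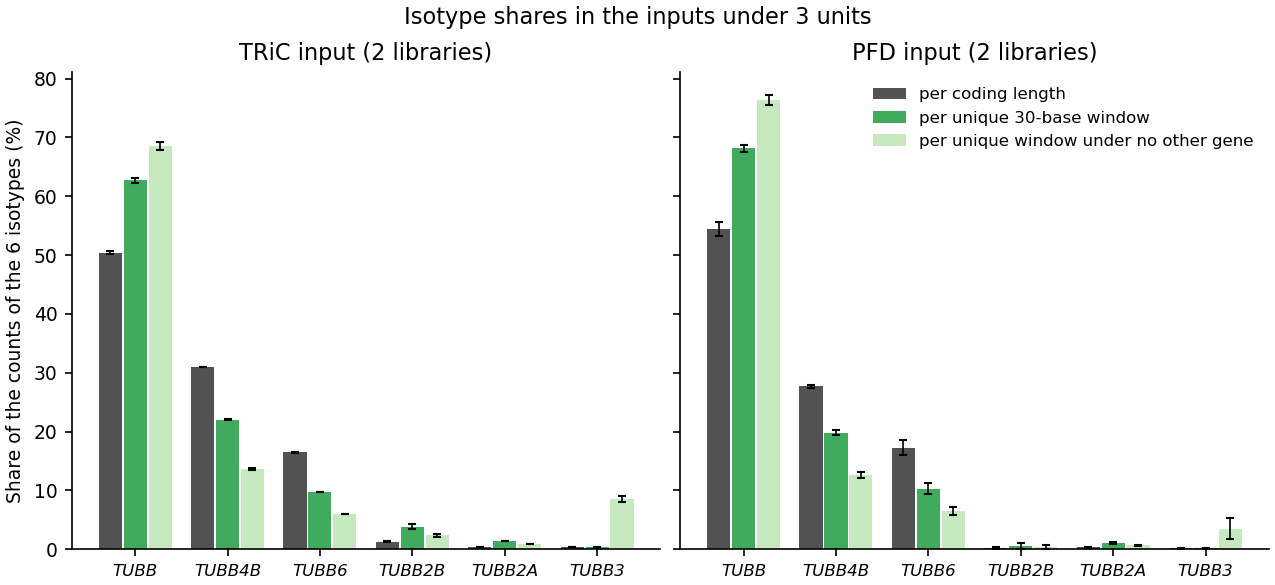
Share of each isotype (percent of the summed 6, vertical axis) in the inputs of each line when counts are divided by coding length (dark grey), by unique 30-base windows (green) or by unique windows under no other gene on either strand (light green); bars are means of 2 libraries and error bars the SD. TUBB leads under each unit, and TUBB3 rises from 0.415% to 8.51% in the TRiC inputs under the last of them.

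The shares depended on what the counts were divided by. With counts per unique 30-base window, TUBB stood at 62.7% (TRiC inputs) and 68.1% (PFD inputs), TUBB4B at 22.0% and 19.8%, TUBB6 at 9.77% and 10.3%, and TUBB2B at 3.82% and 0.597%. The order of TUBB, TUBB4B and TUBB6 held. When windows under another gene on the same strand were left out as well, a setting added after the data were seen, TUBB3 stood at 12.1% ± 0.748 (TRiC) and 5.25% ± 2.55 (PFD), ahead of TUBB6 at 8.61% in the former. That value rests on 21 windows and assumes that TUBB3 counts came from these alone, although gene counts also take in reads on untranslated exons. The place of TUBB3 among the isotypes is therefore not fixed by these counts. Comparisons of the same isotype between libraries use no divisor. They do assume that footprints lie alike along the coding sequence in the libraries compared, since only part of it can be counted. The counts hold no position, so this was not tested.

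Between the inputs of both lines, TUBB2B differed most. Its level, in CPM on the scale of the fit of the 4 inputs, was 44.7 and 38.2 in the TRiC inputs against 11.3 and 2.89 in the PFD inputs, resting on 1258, 1173, 214 and 30 counts. No TRiC input overlapped a PFD input, and the PFD replicates themselves lay far apart. The share of all genes whose libraries separate in this way was not counted, here or below, so separation is only described. The log2 difference (TRiC over PFD) was 2.47 (SE 0.54, adjusted p = 0.0177, edgeR). It was 3.85 without PFD input replicate 1 and 1.90 without PFD input replicate 2.

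TUBB was lower in the TRiC inputs, at 1636 and 1625 CPM against 1977 and 1872 CPM, a log2 difference of -0.24 (SE 0.05, adjusted p = 0.0143, edgeR). These 2 were the members called, 1 higher and 1 lower, where 22.6% of all 16341 genes tested were called higher and 17.7% lower in the TRiC inputs. The median log2 difference of all genes was 0.11 and that of genes with a mean of at least 100 CPM was -0.12, and TUBB was called with library totals in place of TMM (-0.24, adjusted p = 0.0171, edgeR) but not with cyclic loess, which changes scaling and test together (-0.08, adjusted p = 0.238, limma-trend). It was -0.14 (adjusted p = 0.0518, edgeR) among genes with at least 100 counts in every library.

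The other 4 isotypes were not called between the inputs in the fit used above. With DESeq2 on the same 4 inputs, TUBB3 (1.16, adjusted p = 0.0112) and TUBB6 (-0.19, adjusted p = 0.00574) were called. DESeq2 called 28.4% of all genes higher and 23.1% lower. Without the filter on low counts, TUBB3 was called (1.19, adjusted p = 0.0069, edgeR) and TUBB6 was not. TUBB3 stood at 14.4 and 12.8 CPM in the TRiC against 8.31 and 3.75 CPM in the PFD inputs, with no overlap (log2 difference 1.15, SE 0.41, adjusted p = 0.0764, edgeR). The difference was 1.87 without PFD input replicate 1 and 0.74 without PFD input replicate 2. TUBB6 had a log2 difference of -0.19 (SE 0.06, adjusted p = 0.0552, edgeR), which was -0.24 without PFD input replicate 1 and -0.10 without PFD input replicate 2. TUBB3 passed the threshold in both of these fits and TUBB6 in the former, but each leaves 1 PFD input that is assumed to vary like the TRiC inputs, and 34.7% of genes were then called higher and 23.8% lower without replicate 1 (33.8% and 24.9% without replicate 2). TUBB4B had a log2 difference of 0.03 (SE 0.05, adjusted p = 0.618, edgeR) on this scale and of 0.19 (adjusted p = 0.0284, limma-trend) with cyclic loess. TUBB2A had a log2 difference of 0.29 (SE 0.25, adjusted p = 0.397, edgeR). In bulk libraries, fewer cells making an isotype and less synthesis per cell cannot be told apart.

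**Figure D2:**
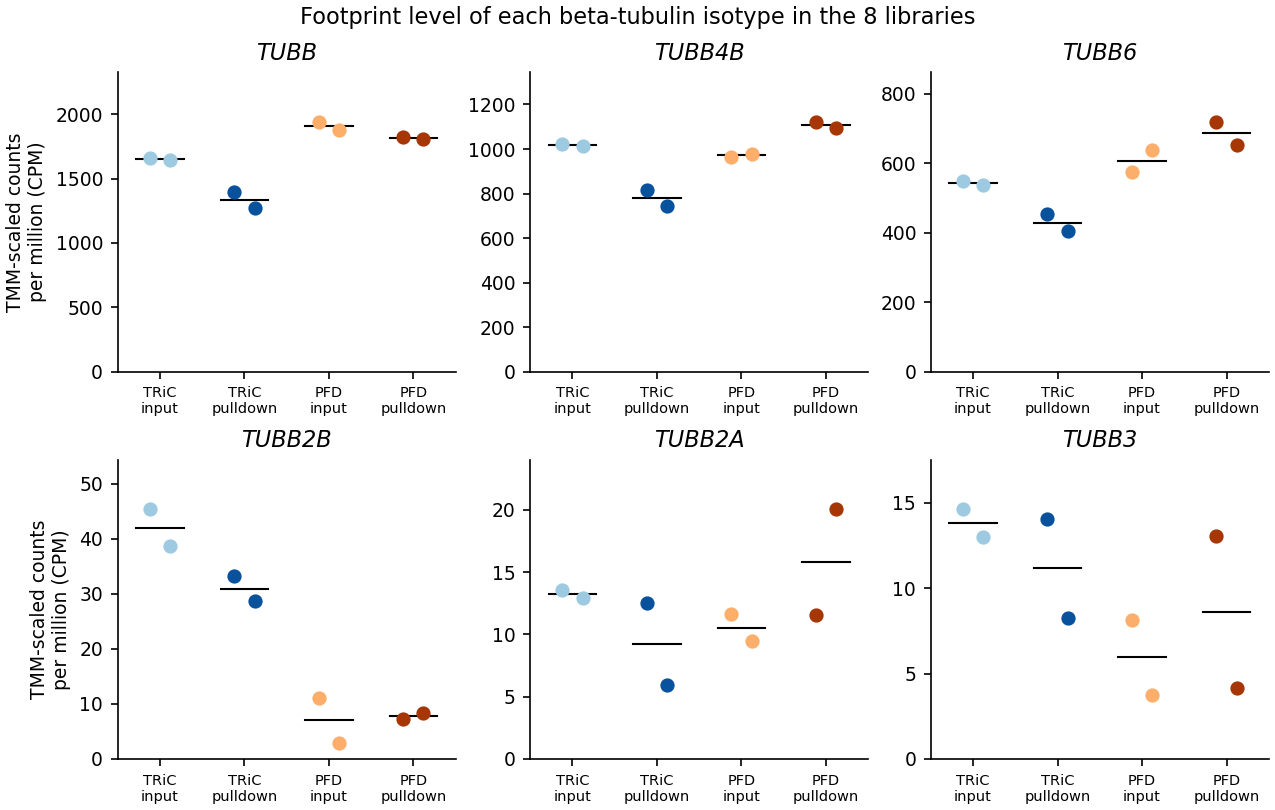
Level of each isotype (vertical axis, CPM scaled by TMM within each line, from 0) in the 8 libraries; points are libraries, ordered by replicate number, and lines are group means. TUBB, TUBB4B, TUBB6, TUBB2B and TUBB2A lie lower in both TRiC pulldowns than in both TRiC inputs. In PFD, TUBB4B and TUBB6 lie higher in both pulldowns than in both inputs, and TUBB lies lower. The share of all genes that separate in this way was not counted.

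The second question was whether ribosomes making beta-tubulin were recovered with TRiC more or less than the average ribosome. All 6 isotypes had a log2 fold change below 0 in the TRiC pulldown against the TRiC input, and 4 of 6 fell past the threshold (adjusted p under 0.05, edgeR). Across all 17934 genes tested, 10.6% were called lower and 8.64% higher, a split that turned with library totals in place of TMM (7.05% lower and 10% higher, the same 4 isotypes still called). Among the 2121 genes with a mean of at least 100 CPM, 33.1% were called lower. The median log2 fold change was -0.36 over the 6 isotypes, -0.13 over those abundant genes and -0.0032 over all genes. These values compare the summed footprints of a gene, and the counts hold no position within the coding sequence, so a gain at some codons with a loss at others would not be seen.

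TUBB, the main isotype of dividing cells, fell from input levels of 1661 and 1647 CPM to 1399 and 1272 CPM in the TRiC pulldowns. Both pulldowns were below both inputs (log2 fold change -0.31, SE 0.06, adjusted p = 0.00286, edgeR). TUBB4B, an isotype also found in ciliary microtubules, fell from 1024 and 1012 to 817 and 745 CPM. Again the groups did not overlap (log2 fold change -0.38, SE 0.07, adjusted p = 0.000747, edgeR). TUBB6, a divergent isotype, fell from 548 and 538 to 453 and 405 CPM, without overlap (log2 fold change -0.34, SE 0.07, adjusted p = 0.00311, edgeR). With cyclic loess, which takes out a trend with abundance, the 3 values shrank to -0.13 in TUBB (adjusted p = 0.150), -0.22 in TUBB4B (adjusted p = 0.0184) and -0.20 in TUBB6 (adjusted p = 0.0424, all limma-trend), and TUBB was no longer called.

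TUBB2B, at far lower counts, fell from 45.4 and 38.7 to 33.2 and 28.6 CPM. Pulldowns lay below inputs (log2 fold change -0.44, SE 0.12, adjusted p = 0.0144, edgeR), but the call was lost without TRiC input replicate 1 (-0.32, adjusted p = 0.256, edgeR). TUBB2A had input levels of 13.6 and 12.9 CPM and pulldown levels of 12.5 and 5.96 CPM, the latter on 416 and 150 counts. The pulldowns of TUBB2A disagreed with each other, and its log2 fold change of -0.51 (SE 0.24, adjusted p = 0.155, edgeR) was not called. It became -1.16 without TRiC pulldown replicate 1 and -0.08 without replicate 2 of that pulldown. TUBB3 had input levels of 14.6 and 13.01 CPM, and its pulldown levels of 14.1 and 8.26 CPM overlapped them (log2 fold change -0.30, SE 0.21, adjusted p = 0.349, edgeR). For TUBB3 too, the value turned from -0.75 without TRiC pulldown replicate 1 to 0.04 without replicate 2. Both passed the threshold without replicate 1, in a fit where the lone pulldown is assumed to vary like the inputs.

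A fit of all 8 libraries together called 0 of 6 isotypes in the TRiC pulldown, with near-equal fold changes and adjusted p from 0.139 in TUBB4B to 1 in TUBB2B (edgeR). In that fit 0.0796% of all genes were called lower and 0.0849% higher. The 6 isotypes together fell from 0.319% and 0.327% of all counts (inputs) to 0.279% and 0.249% (pulldowns), which is a scaling by library totals.

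**Figure D3:**
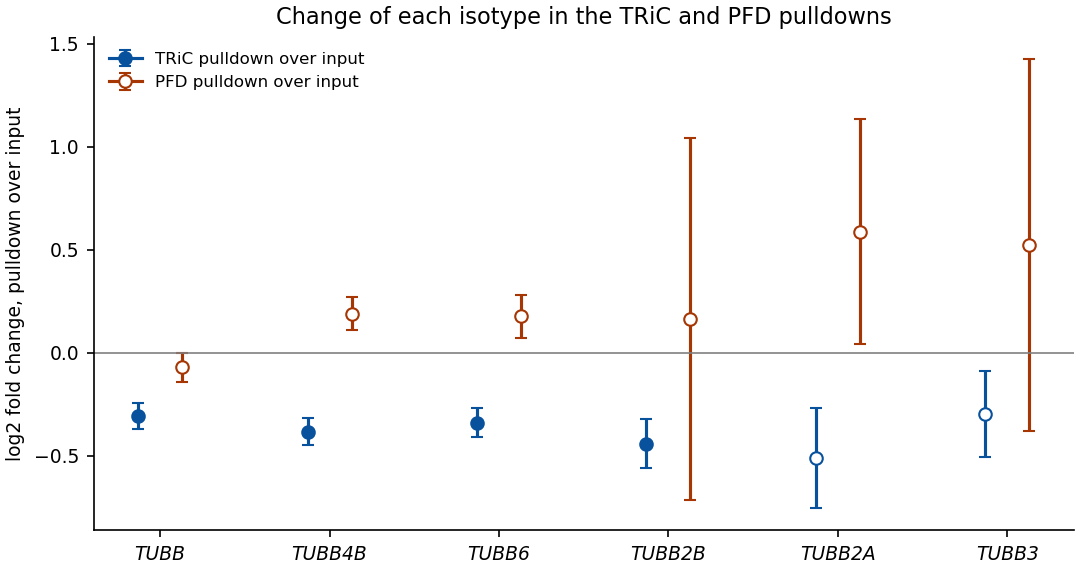
Log2 fold change of each isotype, pulldown over input (vertical axis), in the TRiC (blue) and PFD (brown) libraries. Bars are 1 SE, derived from the edgeR fold change and its test statistic, and filled points passed an adjusted p of 0.05. The 6 TRiC values lie between -0.51 and -0.30, and the PFD values between -0.07 and 0.59 with none filled.

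The PFD pulldown gave another picture: 5 of 6 isotypes had a log2 fold change above 0, and 0 were called in either direction. In this comparison 0.0496% of 14111 genes were called higher and 0.191% lower, so calls were rare for any gene. At an unadjusted p under 0.05, 1 of 6 isotypes passed with edgeR, against 6.93% of all genes. The median log2 fold change was 0.18 over the 6 isotypes and -0.00048 over all genes.

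TUBB4B was that isotype. Its PFD inputs held 966 and 978 CPM and its pulldowns 1121 and 1096 CPM. Both pulldowns were above both inputs (log2 fold change 0.19, SE 0.08, unadjusted p = 0.0445, adjusted p = 0.719, edgeR). DESeq2 gave 0.20 with an adjusted p of 0.0346 and called 1.81% of all genes higher. TUBB6 went from 575 and 639 CPM (inputs) to 718 and 654 CPM (pulldowns), also without overlap but with a narrow gap (log2 fold change 0.18, SE 0.10, adjusted p = 0.831, edgeR). TUBB, in contrast, had input levels of 1938 and 1876 CPM and pulldown levels of 1825 and 1805 CPM, with both pulldowns below both inputs (log2 fold change -0.07, SE 0.07, adjusted p = 0.936, edgeR).

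The minor isotypes had wide errors in the PFD libraries. TUBB2A had input levels of 11.6 and 9.45 CPM and pulldown levels of 11.5 and 20.04 CPM (log2 fold change 0.59, SE 0.55). TUBB2B measured 11.1 and 2.89 CPM before and 7.33 and 8.39 CPM after the pulldown (0.16, SE 0.88). For TUBB3 the inputs held 8.14 and 3.76 CPM and the pulldowns 13.04 and 4.18 CPM (0.52, SE 0.90). In all 3, pulldowns and inputs overlapped. The sign of TUBB2B turned without PFD input replicate 2 (-0.51), and that of TUBB3 without PFD pulldown replicate 1 (-0.52).

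Whether the pulldowns of both chaperones differed was tested as an interaction over all 8 libraries. The log2 fold change was lower in TRiC than in PFD for all 6 isotypes, and 0 of 6 passed an adjusted p of 0.05, where 0.0159% of 18855 genes were called lower and 0.0212% higher. With edgeR, 2 of 6 isotypes had an unadjusted p under 0.05, against 14.8% of all genes. The median difference was -0.56 over the 6 isotypes, -0.13 over genes with a mean of at least 100 CPM and -0.0059 over all genes. The difference (TRiC minus PFD) was -0.56 in TUBB4B (SE 0.10, unadjusted p = 0.000615, adjusted p = 0.139) and -0.50 in TUBB6 (SE 0.12, unadjusted p = 0.00293, adjusted p = 0.175). For TUBB it was -0.22 (SE 0.11, adjusted p = 0.362, edgeR). TUBB2A, TUBB2B and TUBB3 had differences of -1.11, -0.57 and -0.77 with SE of 0.67, 0.71 and 0.88.

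TUBB4B and TUBB6 were called, and no other isotype was, under 4 of the 14 alternatives run, and no isotype was called under the other 10. DESeq2 gave adjusted p of 1.18e-07 for TUBB4B and 0.00498 for TUBB6, and called 2.84% of all genes lower. Without the filter on low counts edgeR gave 0.00162 and 0.0289, and called 0.795% of genes lower. In the other 2, the lone PFD pulldown is assumed to vary like the other groups, although over all genes the PFD pulldowns had the widest replicate gap. For TUBB4B the SD was 17.0 CPM in the PFD pulldowns and 51.3 CPM in the TRiC pulldowns, and for TUBB6 45.7 and 33.5 CPM. These 2 fits left out PFD pulldown replicate 1 or replicate 2. They called 2.69% and 6.73% of all genes lower, and the differences were -0.58 and -0.52 in TUBB4B and -0.47 and -0.51 in TUBB6. Over all alternatives, those leaving out a library included, the difference in TUBB4B stayed below 0.

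Ratios of isotypes within a library need no scaling between libraries, and they placed TUBB4B and TUBB6 beside TUBB. The unique share of 30-base windows differs between them (42.4% in TUBB, 74.1% in TUBB4B and 88.8% in TUBB6). Whether footprints moved along the coding sequence between input and pulldown was not tested. The log2 ratio of TUBB4B to TUBB counts was -1.005 and -0.94 in PFD inputs, against -0.70 and -0.72 after the PFD pulldown. It rose by 0.26 on average, where replicates differed by at most 0.07. In the TRiC libraries the ratio went from -0.70 in both inputs to -0.78 and -0.77 in the pulldowns, lower by 0.07 where replicates differed by at most 0.01. For TUBB6 the log2 ratio was -1.75 and -1.55 in PFD inputs, against -1.34 and -1.47 after the PFD pulldown, a mean gain of 0.25 against a replicate gap of up to 0.20. In TRiC it moved by -0.03, from -1.60 and -1.62 to -1.63 and -1.65. With 2 libraries against 2, an exact two-sided permutation test cannot give a p below 0.333, so these ratios stand as values.

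**Figure D4:**
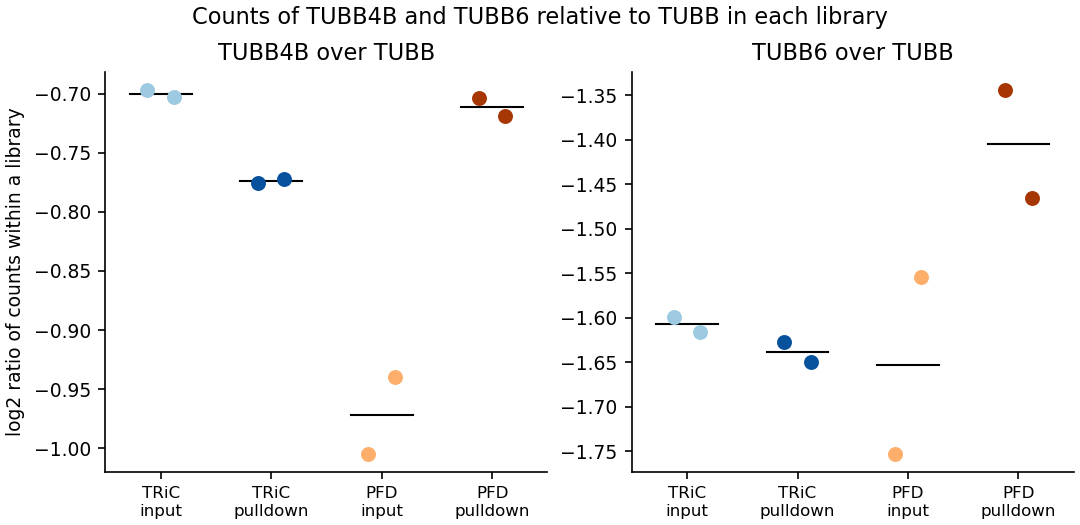
Log2 ratio of TUBB4B (left) and TUBB6 (right) counts to TUBB counts within each library (vertical axes, not starting at 0); points are libraries and lines group means. Both PFD pulldowns lie above both PFD inputs in each panel, by 0.26 on average for TUBB4B and 0.25 for TUBB6, while the TRiC pulldowns lie lower than the TRiC inputs by 0.07 and 0.03.

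The TUBB4B to TUBB ratio in the PFD inputs was also lower than in the TRiC inputs, where it was -0.70. The PFD pulldowns stood close to the level of the TRiC inputs. The ratios of TUBB2A, TUBB2B and TUBB3 to TUBB overlapped between pulldown and input in both lines, except that TUBB2A was higher in both PFD pulldowns (by 0.61, with replicates up to 0.81 apart).

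The partner of beta-tubulin in the dimer, alpha-tubulin, was set beside it, and no test compared them. Summed over the 6 isotypes and set against the summed alpha-tubulin genes, the log2 ratio of beta to alpha counts was 2.08 and 2.09 in PFD inputs, against 2.61 and 2.57 after the PFD pulldown. For TRiC it went from 2.80 and 2.76 (inputs) to 2.64 and 2.63 (pulldowns). Without TUBA1B, a main alpha-tubulin, the PFD values were 2.74 and 2.83 in inputs, against 3.04 and 2.98 after the pulldown, so that this gene carried much of the shift. TUBA1B fell in the PFD pulldown (log2 fold change -1.06, SE 0.12, adjusted p = 0.0218, edgeR) and was the only gene of the tubulin pathway lists called there. In the TRiC pulldown all 6 alpha-tubulins tested had a log2 fold change below 0 (median -0.21), as had all 6 beta-tubulin isotypes. Among them TUBA3E (-2.07) rested on 0 to 12 counts. TUBA1A, TUBA1B and TUBA1C stood at -0.15, -0.15 and -0.16, where the median of genes with a mean of at least 100 CPM was -0.13. Of the 6 alpha-tubulins 2 were called lower, TUBA4A (-0.63, adjusted p = 0.0318) and TUBA3C (-0.26, adjusted p = 0.0387, edgeR), and 0 higher. Of all genes 10.6% were called lower there, and 33.1% of genes with a mean of at least 100 CPM, a level that TUBA3C passed (129 CPM). Alpha-tubulin genes are themselves near-identical to each other, so unique alignment limits their counts as well.

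The pathway lists hold alpha-tubulins, minor tubulins, folding cofactors, TRiC partners, autoregulation genes and ligases of tubulin tails, and their calls in the TRiC pulldown were mixed. Of the 34 genes tested in all pathway lists, 4 were called higher and 8 lower, beside 8.64% and 10.6% of all genes. Of the 7 folding cofactors, 1 rose and 2 fell: TBCEL, a TBCE-like protein (log2 fold change 1.26, on 49 to 161 counts), TBCB (-0.58, adjusted p = 0.000231) and ARL2 (-0.52, adjusted p = 0.0341, edgeR). TBCA and TBCD, which take up beta-tubulin itself, had log2 fold changes of 0.04 (SE 0.12, adjusted p = 0.874) and 0.13 (SE 0.07, adjusted p = 0.254, edgeR). The median of the 7 was 0.04. Of 3 autoregulation genes, SCAPER rose (0.73, adjusted p = 0.000373) and CNOT11 fell (-0.34, adjusted p = 0.0147, edgeR).

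Among the 10 ligases that modify tubulin tails, TTLL3 (0.78) and TTLL5 (0.45) rose and TTLL12 fell (-0.40). The TRiC partner PDCD5, 1 of 4 tested, fell (-0.35, adjusted p = 0.0241, edgeR), as did the gamma-tubulin TUBG1, 1 of 4 minor tubulins (-0.49, adjusted p = 0.00368, edgeR). In the PFD pulldown and in the difference between the pulldowns, 0 genes of the cofactor, autoregulation, ligase, partner and minor tubulin lists were called.

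Between the inputs, 16 of the 33 pathway genes tested were called (48.5%), beside 40.3% of all genes, so that nothing particular to the lists is read from the count. Lower in the TRiC inputs were TUBA4A (-2.42), TUBA1C (-1.13) and TUBA1B (-1.10) among alpha-tubulins, TBCC (-1.04) and TBCD (-0.47) among cofactors, CNOT11 (-0.65), and the ligases TTLL12 (-0.75), TTL (-0.60), TTLL4 (-0.50) and TTLL5 (-0.48). Higher were ARL2 (1.33), the minor tubulins TUBG2 (3.47, on 7 to 203 counts), TUBD1 (1.18) and TUBG1 (0.48), and the ligases TTLL1 (2.42, on 9 to 151 counts) and TTLL6, which had 0 to 30 counts. TBCA had a log2 difference of -0.16 (SE 0.17, adjusted p = 0.495, edgeR). Alongside these, the epithelial keratins KRT8 (-2.19) and KRT18 (-0.66) and the neuron marker MAP2 (-0.73) were lower in the TRiC inputs, as were VIM (-0.21) and COL1A1 (-0.42), while SPARC (0.47) and the neuron marker STMN2, with 19 and 28 counts against 0 in both PFD inputs, were higher. Their part in the isotype differences was not tested.

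Most other beta-tubulin genes were near the limit of counting. The 6 isotypes made up 98.2% to 99.7% of all counts on the 45 beta-tubulin genes and pseudogenes. TUBB4A, a brain isotype, had 515 and 502 counts in TRiC inputs, 511 and 324 after the TRiC pulldown, 57 and 35 in PFD inputs and 104 and 97 after the PFD pulldown. Like TUBB2B it was higher in the TRiC inputs (log2 difference 2.44, SE 0.27, adjusted p = 0.0019, edgeR). TUBB1, the platelet isotype, had 0 counts in both PFD inputs, 424 and 61 after the PFD pulldown, and 8 to 37 in any TRiC library, and it was not called in the PFD pulldown. TUBB8 and TUBB8B had 0 counts throughout. Of the 35 pseudogenes, TUBBP1 alone reached 100 counts in a library, with 38 to 187.

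The genes whose profile over the 8 libraries was most like that of the summed 6 isotypes were PRPF8, EZHIP, BSG, JUN and AXL. Likeness was the root mean square difference of log2 CPM, each centred on its own mean, over 9439 genes with at least 10 CPM. It was 0.03 in PRPF8, 0.04 in EZHIP, BSG, JUN and AXL, and 0.39 for the median gene. The isotypes themselves lay at 0.05 (TUBB), 0.06 (TUBB4B), 0.09 (TUBB6), 0.38 (TUBB2A), 0.80 (TUBB3) and 1.45 (TUBB2B). TUBB, TUBB4B and TUBB6 make up nearly all of the sum and so are close to it by construction.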

How the data were processed

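Ribosome footprints were sequenced from inputs and pulldowns of both lines in 2 replicates each. Per the labels and the study's methods, the authors removed duplicates with UMI-tools, discarded non-coding RNA with Bowtie2 2.4.2 and aligned the rest to hg38 with STAR 2.7.10a, allowing 2 mismatches and discarding reads with several alignments. Each line's deposited table holds raw counts per gene. The annotation release and the strand setting are not given in the sources used here. Of the 60664 identifiers, 60463 were named from GENCODE 44. Unique windows and sequences were read from hg38 and GENCODE 44.

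Counts were tested with edgeR 4.0.16 in R 4.3.3 (TMM, filterByExpr, quasi-likelihood test, Benjamini-Hochberg over all genes tested, threshold 0.05), pulldown against input within each line, the interaction over 8 libraries, and the 4 inputs. DESeq2 1.42.0, limma-trend (limma 3.58.1) after cyclic loess, library totals, other filters, a single fit, a replicate block and leaving out each library were alternatives. Scripts were tested on simulated data. CPM values were scaled within each line. SE are those of the log2 fold change, derived from that value and the F statistic of the edgeR quasi-likelihood test. With counts of this depth, the spread between replicates limits TUBB, TUBB4B and TUBB6, while counting error adds to that of TUBB2A, TUBB2B and TUBB3. The members and lists were chosen with earlier results of these data known. Named genes were all members, other beta-tubulins with at least 100 counts in a library, list genes called in a comparison, TBCA and TBCD, and the 5 genes most like the family; TUBB8, TUBB8B, and the markers named singly, INA, DCX, MAP2, SNAP25, STMN2, KRT8 and KRT18, were named after their values were seen.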

Additional observations from a re-analysis of the deposited data

How the results depend on the processing

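The fall of 4 isotypes in the TRiC pulldown was called in 3 to 6 isotypes when a library was left out (3 without TRiC input replicate 1, 6 without TRiC pulldown replicate 1) and in 0 in a fit of all 8 libraries. The count of isotypes called higher in the PFD pulldown was 0, and 1 (TUBB4B) with DESeq2. It stayed 0 in both directions when any library was left out. Isotypes whose change differed between the pulldowns numbered 0, and 2 with DESeq2 and without the filter on low counts, with a range of 0 to 2 when a library was left out. Between the inputs 2 isotypes were called, 4 with DESeq2, 0 of the 3 tested with at least 100 counts in every library, 1 in a fit of all 8 libraries, and 2 to 4 when a library was left out. The cause of these shifts was not tested. Where a fit left a group with 1 library, that library was assumed to vary like the other groups.

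Directions turned in 5 cases, each on leaving out a library, and the ranges over all libraries left out in turn were as follows. TUBB3 in the TRiC pulldown ranged from -0.75 (without pulldown replicate 1) to 0.0387 (without pulldown replicate 2). In the PFD pulldown TUBB2B ranged from -0.51 to 1.43 (without input replicates 2 and 1) and TUBB3 from -0.52 (without pulldown replicate 1) to 1.17 (without input replicate 1). The difference between the pulldowns ranged from -1.91 to 0.0587 in TUBB2B and from -1.48 to 0.22 in TUBB3, at the same PFD libraries. With a replicate block, 5 isotypes were called lower in the TRiC pulldown, TUBB2A being added (-0.59, adjusted p = 0.0234, edgeR), 0 in the PFD pulldown in either direction and 0 in the difference. The numbers were not shown to pair the libraries: deviations of same-numbered libraries correlated at 0.229 across genes in TRiC and -0.00966 in PFD.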
